A study of Mus musculus with 20 samples.

Results

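The genes described here are those of the proteasome, the cell's main protease for ubiquitin-tagged proteins. They were taken by name, as the protein-coding rows found in both count tables whose GENCODE symbol begins with Psma, Psmb, Psmc, Psmd, Psme, Psmf or Psmg followed by a number, with Psmb8 and Psmb9 left out. This gave 48 of the 54221 genes present in at least 1 of the tables. RNA was sequenced from hearts and femur muscle of Taz-KD and WT mice, with 5 libraries per genotype and tissue. Each library is labelled with its own code, read here as an animal of its own, so that p-values measure the spread between these animals. Taz-KD mice carried ROSA26H1/tetO-shRNA:TAZ, a doxycycline-driven short hairpin RNA against tafazzin, the mitochondrial enzyme that remodels cardiolipin and is defective in Barth syndrome. WT mice were C57BL/6N without the transgene. Both genotypes ate chow with 625 mg/kg doxycycline until the end of the experiment at 20 weeks, so the drug itself was common to all groups. The hairpin is driven from the ROSA26 locus in the whole animal, so a change in heart or muscle need not start in that tissue. Heart and muscle carry different codes, and nothing pairs them.

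The 26S proteasome is built of a barrel-shaped 20S core and a 19S regulatory cap. The core has outer rings of alpha subunits, which gate the entrance, and inner rings of beta subunits, of which Psmb5, Psmb6 and Psmb7 carry the catalytic sites. The cap has a base, whose ring of AAA ATPases Psmc1 to Psmc6 unfolds substrates, and a lid, in which Psmd14 removes ubiquitin chains. Other caps can replace it: Psme1 and Psme2 form PA28αβ, Psme3 forms PA28γ in the nucleus, and Psme4 is PA200. Dedicated chaperones assemble the core (Psmg1 to Psmg4) and the base (Psmd5, Psmd9, Psmd10). When proteasome activity is short, the membrane-bound transcription factor Nfe2l1 (NRF1) is known to switch on the subunit genes together, through antioxidant response elements in their promoters. In striated muscle the system removes misfolded and damaged proteins and takes down sarcomeres during atrophy.

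By role, the 48 genes were 7 alpha subunits, 7 beta subunits, 6 base ATPases, 3 other base subunits (Psmd1, Psmd2, Psmd4) and 8 lid subunits, which together make up 31 genes of the 26S particle. The others were 4 genes of alternative caps, 7 assembly chaperones, the core inhibitor or adaptor Psmf1, the inducible subunit Psmb10, the thymic subunit Psmb11, the germline alpha subunit Psma8 and Psme2b, a gene named after Psme2. Psmc3ip matched the name but encodes a meiotic recombination factor and no subunit. Of the 48, 47 passed the filter on low counts in heart (all but Psmb11, with 2 counts over the Taz-KD hearts and 4 over the WT hearts). In muscle 45 passed, all but Psma8, Psmb11 and Psme2b.

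Values are given in CPM, gene counts relative to the library total after TMM scaling, which puts the libraries on a common footing, in the order R2, R1793, R1796, R1797, R1798 for Taz-KD hearts and R3, R1791, R1792, R1795, R1800 for WT hearts. Muscle values follow the order A34, A39, A52, A56, A58 for Taz-KD and A33, A40, A51, A55, A57 for WT. Total counts were 30248445 to 35301909 in Taz-KD hearts and 26963288 to 30090918 in WT hearts, so that every Taz-KD heart was sequenced more deeply, and the part of this in the values was not tested. In muscle they were 46985694 to 74361382 in Taz-KD and 36429399 to 61100247 in WT. Taz itself measured 11.7, 11.1, 12.9, 11.6 and 11.02 CPM in the Taz-KD hearts, against 36.9, 36.0, 39.2, 39.1 and 37.8 CPM in the WT hearts. In muscle it measured 12.7, 12.8, 13.4, 12.9 and 15.2 CPM in the Taz-KD muscles, against 45.9, 52.6, 51.8, 54.8 and 53.2 CPM in the WT muscles. Every Taz-KD library lay below every WT library in both tissues, as the labels state (log2 fold change -1.70, SE 0.06, adjusted p = 4.08e-09, edgeR, in heart, and log2 fold change -1.94, SE 0.08, adjusted p = 1.86e-06, edgeR, in muscle). The WT muscles A33 and A55 stood apart from the other muscles. Their summed adipocyte markers were 1169.8 and 342 CPM, whereas the Taz-KD muscles had 2.89 to 79.8 CPM and the other WT muscles 24.0 to 216 CPM. Their summed skeletal fibre markers were 76562 and 56205 CPM, below the Taz-KD muscles (105050 to 167920 CPM) and the other WT muscles (113720 to 162300 CPM). White blood cell markers summed to 382 CPM in A33 and 78.3 CPM in A55. They were 45.9 to 77.2 CPM in Taz-KD muscles and 62.5 to 82.3 CPM in the other WT muscles. The part of these cells in the muscle values was not tested. Results that rest on A33 and A55 are given with and without them. The tissues matched their markers: the 6 of cardiac myocytes summed to 31744 to 44353 CPM in the hearts and 59.7 to 558 CPM in the muscles, and the skeletal Myh4 was at 0 in every heart. In bulk tissue, fewer cells of a type and less RNA per cell cannot be told apart.

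In heart, most genes of the proteasome were higher in Taz-KD by small amounts. Of the 47 genes tested, 29 were called higher in Taz-KD hearts, that is at an adjusted p under 0.05 in edgeR, and 1, Psme1, was called lower. Over all 19486 genes tested in heart, 14.4% were called higher and 10.3% lower. The median log2 fold change (Taz-KD over WT) of the 47 genes was 0.28, beside -0.02 over all genes, and 43 of the 47 were above 0. All 31 genes of the 26S particle had a log2 fold change above 0, between 0.07 for Psmd11 and 0.72 for Psmb1, and 21 of them were called higher. In 25 genes every Taz-KD heart lay above every WT heart, as it did for 11.3% of all genes, and in 1 every Taz-KD heart lay below, as for 7.05% of all genes. Fitted together with the muscles, 17 genes were called in heart, 16 higher and 1 lower. Of all 20612 genes in that fit, 1372 were called higher and 715 lower.

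The summed level of the 31 subunit genes was 2172, 2078, 2265, 1932 and 2016 CPM in the Taz-KD hearts, against 1563, 1669, 1669, 1762 and 1785 CPM in the WT hearts. The heart libraries of the genotypes did not overlap in this sum, with R1796 the highest and R3 the lowest. The sum over the 6 markers of cardiac myocytes did overlap, at 31744 to 44353 CPM in Taz-KD hearts and 31840 to 44130 CPM in WT hearts. Of the 3 skeletal fibre markers tested, Acta1 was called higher (log2 fold change 1.82), Ckm (0.03) and Tnnt3 (-0.29) were not called, and Myh1, Myh2 and Myh4 were below the filter. Markers of other cells moved in both directions. All 5 of endothelium had log2 fold changes below 0, and Pecam1 (-0.33) and Tek (-0.20) were called and did not overlap. The red cell genes Alas2 (-0.59) and Hbb-bs (-0.71), 2 of 4, were called lower as well. So was the pericyte gene Rgs5 (-0.38), 1 of 3 of smooth muscle and pericytes, whereas the other 2 were above 0 and not called. All 3 adipocyte markers tested were above 0 (0.68 to 0.91), and none was called. None of the 5 fibroblast markers was called, and the part of these cells in the values of the proteasome genes was not tested.

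**Figure D1:**
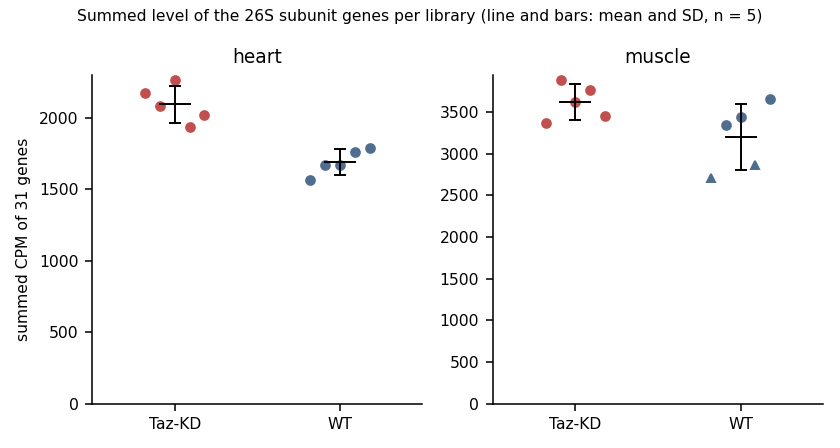
Summed CPM of the 31 subunit genes of the 26S proteasome in each library (y axis), for Taz-KD (left) and WT (right) in heart and in muscle; points are libraries, triangles mark the WT muscles A33 and A55, and the line and bars are mean and SD. The Taz-KD hearts sit between 1932 and 2265 CPM, all above the WT hearts, whereas the muscle groups overlap.

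The 6 ATPases of the base, the motor that unfolds substrates, were all called higher in Taz-KD hearts, with a median log2 fold change of 0.46. Psmc2 (ENSMUSG00000028932, chromosome 5 from 21785283 to 21803787 of GRCm38) had the smallest adjusted p of all the proteasome genes. It measured 93.2, 82.3, 94.5, 77.5 and 85.9 CPM in the Taz-KD hearts, against 52.2, 57.5, 56.7, 57.05 and 56.4 CPM in the WT hearts. The genotypes did not overlap, and the WT hearts were close to each other except for R3, the lowest. Psmc2 was 1.55 times as high in Taz-KD (log2 fold change 0.63, SE 0.06, adjusted p = 2.02e-05, edgeR). Psmc6 (ENSMUSG00000021832, chromosome 14 from 45329788 to 45349705 of GRCm38) measured 92.6, 86.1, 91.8, 84.4 and 92.7 CPM in the Taz-KD hearts, against 53.8, 63.6, 60.5, 63.3 and 68.0 CPM in the WT hearts. All Taz-KD hearts were above all WT hearts (log2 fold change 0.53, SE 0.07, adjusted p = 9.52e-05, edgeR). The log2 fold changes of the others were 0.47 for Psmc1, 0.44 for Psmc4, 0.40 for Psmc5 and 0.28 for Psmc3, and their groups did not overlap either. Psmc3 shares 215 bases with Slc39a13 on the other strand, and the strand setting of the counting is not given in the sources used here.

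The beta ring was uneven. Of its 7 genes 3 were called higher (Psmb1, Psmb5 and Psmb6), and the ring's median log2 fold change was 0.18, although it held the largest change of any 26S gene. Psmb1 (ENSMUSG00000014769, chromosome 17 from 15475021 to 15499751 of GRCm38), a subunit without a catalytic site, measured 97.7, 99.6, 111, 85.6 and 87.6 CPM in the Taz-KD hearts, against 56.7, 55.7, 54.8, 62.9 and 62.9 CPM in the WT hearts. The lowest Taz-KD heart, R1797, was well above the highest WT hearts (log2 fold change 0.72, SE 0.08, adjusted p = 3.71e-05, edgeR). Psmb5 (ENSMUSG00000022193, chromosome 14 from 54614119 to 54618022 of GRCm38) carries the chymotrypsin-like site, the target of bortezomib. It measured 37.0, 41.2, 44.4, 35.9 and 33.2 CPM in the Taz-KD hearts, against 23.4, 21.6, 23.3, 25.3 and 25.1 CPM in the WT hearts. The groups did not overlap, with a ratio of 1.61 between the means (log2 fold change 0.69, SE 0.08, adjusted p = 7.90e-05, edgeR). The genes of the other catalytic subunits changed less: Psmb6, the caspase-like subunit, averaged 61.7 ± 5.94 CPM in Taz-KD hearts and 53.4 ± 1.96 CPM in WT hearts (SD, n = 5 each) and just passed the test (log2 fold change 0.21, SE 0.07, adjusted p = 0.0393, edgeR). Psmb7, the trypsin-like subunit, averaged 72.7 ± 5.56 CPM in Taz-KD hearts and 66.5 ± 5.60 CPM in WT hearts (SD, n = 5 each) and did not (adjusted p = 0.218, edgeR). Psmb4 (0.18, adjusted p = 0.0502) and Psmb3 (0.17, adjusted p = 0.0555) missed the threshold of edgeR narrowly although their libraries did not overlap, and Psmb2 had a log2 fold change of 0.13. Psmb5, Psmb6 and Psmb7 have pseudogenes named in the annotation, so reads could be split between copies.

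In the alpha ring 6 of 7 genes were called higher, with a median log2 fold change of 0.31. Psma5 (ENSMUSG00000068749, chromosome 3 from 108256926 to 108279974 of GRCm38) measured 30.2, 26.2, 32.0, 24.8 and 26.5 CPM in the Taz-KD hearts, against 17.6, 18.7, 17.8, 19.2 and 18.2 CPM in the WT hearts. The WT hearts were close together and lay below all Taz-KD hearts (log2 fold change 0.61, SE 0.08, adjusted p = 0.000113, edgeR). Psma6 (ENSMUSG00000021024, chromosome 12 from 55384222 to 55418454 of GRCm38) measured 66.9, 62.6, 65.5, 59.1 and 61.8 CPM in the Taz-KD hearts, against 43.9, 49.3, 47.8, 50.1 and 49.4 CPM in the WT hearts. Its groups did not overlap (log2 fold change 0.39, SE 0.06, adjusted p = 0.000323, edgeR). Psma7 (0.31), Psma4 (0.31), Psma2 (0.24) and Psma3 (0.21) were called higher with smaller changes, and Psma1 did not pass (0.14, adjusted p = 0.151, edgeR). The calls of Psma2, Psma3 and Psma4 did not hold when any 1 of several libraries was left out. Psma2 lost its call without R1792, R1793 or R1796 (adjusted p = 0.052 to 0.0573), Psma3 without R3, R1791, R2, R1793, R1796 or R1797 (0.0519 to 0.0856), and Psma4 without R3, R1791, R1792, R2, R1796 or R1798 (0.0509 to 0.0642, all edgeR). The call of Psmb6 likewise ended without R3, R1791, R1792, R1795, R2, R1793 or R1796 (0.0572 to 0.0852, edgeR).

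Of the 8 lid genes 4 were called higher. Psmd13 (ENSMUSG00000025487, chromosome 7 from 140881968 to 140898643 of GRCm38), a lid subunit, measured 49.0, 50.9, 53.1, 45.2 and 46.4 CPM in the Taz-KD hearts, against 31.5, 35.0, 32.7, 35.5 and 36.9 CPM in the WT hearts. The groups did not overlap (log2 fold change 0.51, SE 0.06, adjusted p = 0.000122, edgeR), and 342 bases of the gene are shared with Sirt3 on the other strand. Psmd8 had the largest change in the lid at 65.8 ± 12.2 CPM in Taz-KD hearts and 42.0 ± 4.47 CPM in WT hearts (SD, n = 5 each, log2 fold change 0.65, SE 0.12, adjusted p = 0.00204, edgeR), with a wide spread among the Taz-KD hearts. Psmd14, the deubiquitinase of the lid, averaged 33.9 ± 2.53 CPM in Taz-KD hearts and 26.4 ± 2.59 CPM in WT hearts (SD, n = 5 each, log2 fold change 0.36, SE 0.08, adjusted p = 0.00517, edgeR), and Psmd6 had a log2 fold change of 0.32. Psmd12 (0.22, adjusted p = 0.0509), Psmd3 (0.18), Psmd7 (0.14) and Psmd11 (0.07) did not pass the test of edgeR. Among the other base subunits the ubiquitin receptor Psmd4 (0.35) and the scaffold Psmd1 (0.20) were called higher. Psmd2, the other large scaffold, averaged 168 ± 8.74 CPM in Taz-KD hearts and 153 ± 8.81 CPM in WT hearts (SD, n = 5 each) and was not called (log2 fold change 0.13, adjusted p = 0.123, edgeR).

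**Figure D2:**
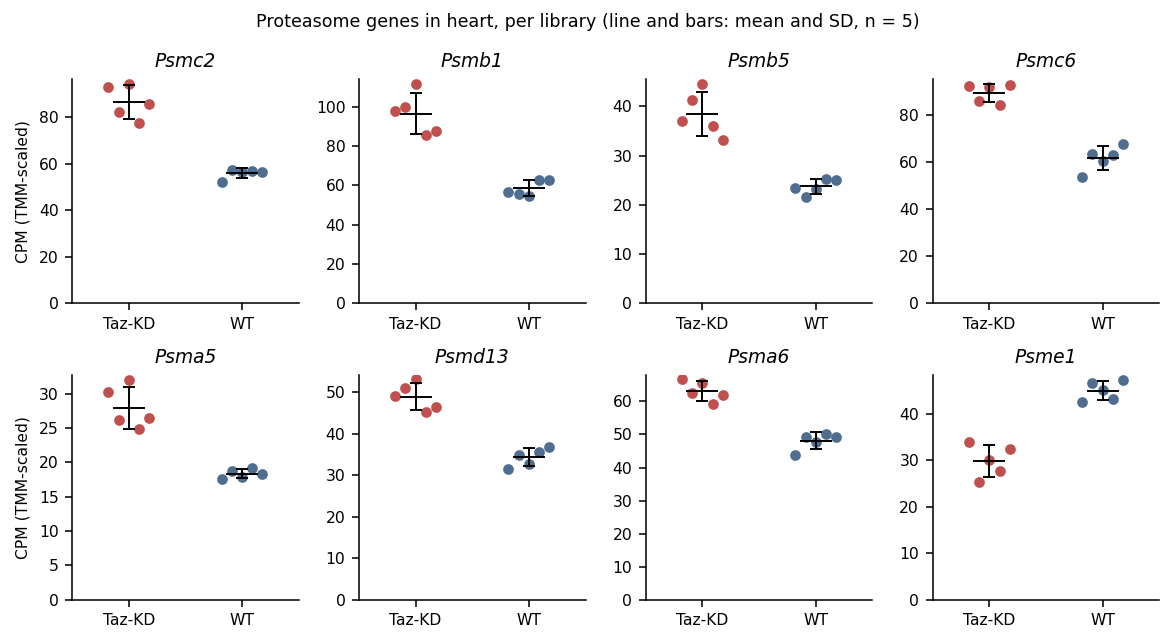
CPM of Psmc2, Psmb1, Psmb5, Psmc6, Psma5, Psmd13, Psma6 and Psme1 in each heart library (y axis, from 0), Taz-KD on the left and WT on the right of each panel; points are libraries, the line and bars are mean and SD (n = 5). The groups do not overlap in any of the 8 panels, and Psme1 is the panel in which Taz-KD lies below WT.

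Of the 7 assembly chaperones 5 were called higher in Taz-KD hearts, with a median log2 fold change of 0.41. Psmg2, which pairs with Psmg1 to set the first alpha subunits in place, averaged 17.5 ± 1.57 CPM in Taz-KD hearts and 12.4 ± 0.300 CPM in WT hearts (SD, n = 5 each, log2 fold change 0.49, SE 0.07, adjusted p = 0.000383, edgeR). Psmd9 (0.41) and Psmd10 (0.49), chaperones of the ATPase ring, were also called higher, although 1849 bases of Psmd9 are shared with Gm26745 on the other strand. The calls of Psmg1 (0.41) and Psmg4 (0.40) did not hold when any 1 of several libraries was left out. Psmg1 lost its call without R3, R1791 or R1796 (adjusted p = 0.0506 to 0.0556) and Psmg4 without R1791, R1792, R1795, R1793, R1796, R1797 or R1798 (0.054 to 0.0938, both edgeR). Psmg3 (0.28, adjusted p = 0.234) and Psmd5 (0.13, adjusted p = 0.313) did not pass (edgeR). Psmf1 was called higher by a small amount (log2 fold change 0.22, SE 0.06, adjusted p = 0.0145, edgeR). Psma8, which replaces Psma7 in the testis, was called higher as well, but at a low level. It averaged 0.865 ± 0.204 CPM in Taz-KD hearts and 0.444 ± 0.0675 CPM in WT hearts (SD, n = 5 each), from 141 counts over the Taz-KD hearts and 64 over the WT hearts (log2 fold change 0.95, SE 0.23, adjusted p = 0.00841, edgeR).

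The alternative caps did not follow the 26S particle. Psme1 (ENSMUSG00000022216, chromosome 14 from 55578123 to 55581529 of GRCm38), the PA28α subunit, was the single proteasome gene called lower in Taz-KD hearts. It measured 33.9, 25.3, 30.04, 27.7 and 32.4 CPM in the Taz-KD hearts, against 42.6, 46.6, 45.2, 43.2 and 47.3 CPM in the WT hearts. The highest Taz-KD heart, R2, was below the lowest WT heart, R3 (log2 fold change -0.59, SE 0.08, adjusted p = 0.000179, edgeR). Its neighbour and partner Psme2 (PA28β) averaged 16.8 ± 1.97 CPM in Taz-KD hearts and 16.4 ± 1.47 CPM in WT hearts (SD, n = 5 each), with groups that overlapped (log2 fold change 0.04, adjusted p = 0.809, edgeR). Psme3 had a log2 fold change of 0.13 and Psme4 of -0.19 (adjusted p = 0.339 and 0.172, edgeR). Psme4 was called lower without R1798, in which it was highest (log2 fold change -0.27, adjusted p = 0.0323, edgeR). Psme2b was likewise not called (-0.37, adjusted p = 0.0838) but was called lower without R1791 (-0.47, adjusted p = 0.0128, both edgeR). Psmc3ip, the gene that is no subunit, had a log2 fold change of -0.04.

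Psmb10, the inducible counterpart of Psmb7, went the other way from Psme1. It measured 22.8, 29.0, 28.2, 20.6 and 21.6 CPM in the Taz-KD hearts, against 16.8, 14.9, 16.8, 19.6 and 20.1 CPM in the WT hearts. All Taz-KD hearts were above all WT hearts (log2 fold change 0.47, SE 0.11, adjusted p = 0.00969, edgeR). The other inducible subunits, Psmb8 and Psmb9, which the name rule leaves out, were called lower. Psmb8, the counterpart of Psmb5, measured 4.69, 5.71, 6.12, 5.56 and 5.28 CPM in the Taz-KD hearts, against 6.44, 7.74, 7.68, 7.42 and 9.47 CPM in the WT hearts. The groups did not overlap (log2 fold change -0.50, SE 0.11, adjusted p = 0.00683, edgeR). Psmb9, the counterpart of Psmb6, averaged 3.79 ± 0.554 CPM in Taz-KD hearts and 5.28 ± 0.673 CPM in WT hearts (SD, n = 5 each, log2 fold change -0.47, SE 0.13, adjusted p = 0.0185, edgeR). Fitted together with the muscles, none of these calls held (adjusted p = 0.482 for Psmb8, 0.551 for Psmb9 and 0.13 for Psmb10, edgeR). Psmb8, Psmb9 and Psmb10 are together known as the subunits of the interferon-induced immunoproteasome. A list of 10 genes of the interferon response and antigen processing, which contains Psmb8 and Psmb9, moved with Psme1. Of the 10, 8 were called lower in Taz-KD hearts, beside 10.3% of all genes tested, and none higher. The summed level of the list was 315 to 375 CPM in Taz-KD hearts and 420 to 622 CPM in WT hearts. Of the white blood cell markers 1 of the 8 tested, Ptprc, was called lower, and their sum was 184 to 209 CPM in Taz-KD hearts and 206 to 305 CPM in WT hearts. None of the 10 genes was at 0 in any heart, Cd3e was the 1 white blood cell marker below the filter, and the part of these lists in the lower level of Psme1 was not tested.

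**Figure D3:**
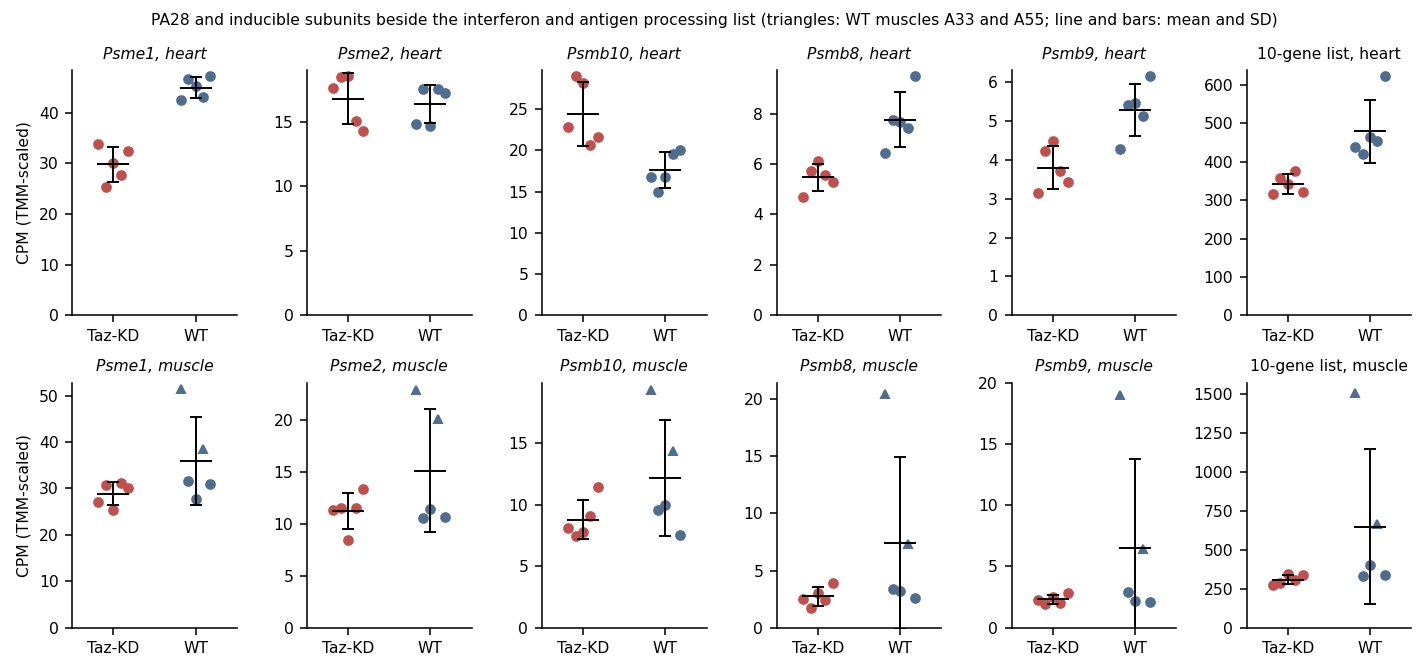
CPM of Psme1, Psme2, Psmb10, Psmb8 and Psmb9 and the summed CPM of the 10-gene interferon and antigen processing list in each library (y axis, from 0), for heart (upper row) and muscle (lower row), Taz-KD left of WT; triangles are the WT muscles A33 and A55, the line and bars are mean and SD (n = 5), and bars that would pass below 0 end at the axis. In heart Psme1, Psmb8 and the list lie lower in Taz-KD and Psmb10 higher, and in muscle the WT values are raised in A33 and A55.

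Other genes of the ubiquitin-proteasome pathway were set beside them, 30 in all. In heart 14 were called higher and 2, Psmb8 and Psmb9, lower, beside 14.4% higher and 10.3% lower over all genes tested. Sem1, a small lid subunit outside the name rule, had a larger change than any of the 31 genes counted here. It measured 72.5, 64.2, 78.1, 59.4 and 70.5 CPM in the Taz-KD hearts, against 36.1, 39.1, 37.2, 35.7 and 39.1 CPM in the WT hearts. The lowest Taz-KD heart was far above the highest WT heart (log2 fold change 0.88, SE 0.07, adjusted p = 4.27e-06, edgeR). Nfe2l1, the transcription factor of the subunit genes, measured 769, 686, 737, 683 and 710.4 CPM in the Taz-KD hearts, against 458, 534, 548, 524 and 515 CPM in the WT hearts. All Taz-KD hearts exceeded all WT hearts (log2 fold change 0.47, SE 0.07, adjusted p = 0.000277, edgeR). Rad23b, a shuttle that carries ubiquitinated proteins to the cap, measured 155, 147, 177, 133 and 139 CPM in the Taz-KD hearts, against 97.5, 97.3, 103, 110.1 and 115 CPM in the WT hearts, again with no overlap (log2 fold change 0.52, SE 0.08, adjusted p = 0.000585, edgeR). Vcp, the AAA ATPase that extracts proteins from membranes and complexes, measured 475, 450.2, 481, 414 and 465 CPM in the Taz-KD hearts, against 306, 336, 349, 345 and 374 CPM in the WT hearts. These groups did not overlap either (log2 fold change 0.42, SE 0.07, adjusted p = 0.000803, edgeR). Rad23b and Vcp were not called when fitted together with the muscles (adjusted p = 0.0573 and 0.152, edgeR).

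Other partners called higher included the deubiquitinase Uchl5 (0.78), its receptor Adrm1 (0.20), the deubiquitinase Usp14 (0.17), the ligase Ube3c (0.22), the proteasome adaptor Ecpas (0.23), the shuttle Ubqln1 (0.21), the ubiquitin-activating enzymes Uba1 (0.17) and Uba6 (0.21), and Rps27a (1.29), which encodes ubiquitin fused to a ribosomal protein. The annotation names 2 pseudogenes of Rps27a, so its count is uncertain. The calls of Adrm1, Ecpas, Uba1, Uba6 and Usp14 were not firm. Leaving out any 1 of 6 to 7 libraries per gene ended them, with adjusted p up to 0.0944 (edgeR). The joint fit with the muscles ended these calls too, and those of Ube3c and Ubqln1 (adjusted p = 0.347 to 0.577, edgeR). Ddi2 and Ngly1, which process the Nfe2l1 protein, had log2 fold changes of -0.0042 and 0.03, and the muscle ligases Fbxo32 (0.17) and Trim63 (-0.21) did not pass the test.

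The promoters were searched for the core of the antioxidant response element, TGACNNNGC, on both strands. The promoter sequences are those of RefSeq on GRCm38.p6, from 250 bases before to 50 after the start, and 40 of the 48 genes matched, with 43 promoters. The core was found in 6 of the 43 promoters, 13.95%, beside 12.4% of all 32851 promoters in the table. Among the 27 promoters of genes called higher in heart 4 held it (14.8%). The share among proteasome genes was thus close to that of all promoters. The stretches that hold it are shown for the 5 genes whose match lies before the start, read along the gene, with the 9 bases of the core in capitals. In Psmb5 (chr14:54618004-54618072, minus strand), Psmb6 (chr11:70525318-70525356, plus strand) and Psmd9 (chr5:123228129-123228189, plus strand) the core reads in the direction of the gene, and in Psmc6 (chr14:45329574-45329635, plus strand) and Psmd12 (chr11:107479278-107479319, plus strand) on the other strand.
Psmb5: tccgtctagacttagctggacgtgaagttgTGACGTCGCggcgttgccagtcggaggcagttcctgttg
Psmb6: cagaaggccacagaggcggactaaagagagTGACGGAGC
Psmd9: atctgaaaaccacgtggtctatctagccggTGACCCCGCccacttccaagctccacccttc
Psmc6: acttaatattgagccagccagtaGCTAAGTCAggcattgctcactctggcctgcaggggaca
Psmd12: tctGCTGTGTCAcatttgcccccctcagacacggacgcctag

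The core lay 47 to 39 bases before the start in Psmb5, 9 to 1 before it in Psmb6 and 31 to 23 before it in Psmd9, but 227 to 219 before it in Psmc6 and 247 to 239 before it in Psmd12. Of these 5 genes, Psmd12 was not called in heart. The sixth match, in Psme4, crosses the start and is not printed. Psmc2 and Psmb1, with the smallest adjusted p, were no examples: the Psmc2 promoters held no such core, and Psmb1 had no promoter in the table. The element bound by ATF4 dimers, TGATGNAAN, was in 1 promoter of 43 (Psmd13, 2.33%), beside 3.95% of all promoters, and CCAAT in 14 (32.6%), beside 37.4%. None of the 6 promoters with TGACNNNGC held a match of the other motifs. A match here is a match of letters in this window and no evidence of binding.

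Levels per length, in RPKM (CPM per kb of merged exons), placed the genes in order. The 31 genes of the 26S particle measured 10.3 to 51.2 RPKM in Taz-KD hearts, with a median of 21.5, and 8.95 to 38.98 RPKM in WT hearts, with a median of 17.7. Psma3 was the lowest and Psma6 the highest in WT by merged exons. Psme4, the PA200 activator, exceeded every one of them in heart with 53.2 RPKM in Taz-KD and 60.7 RPKM in WT, and it was first in WT heart also when the longest transcript was used for the length. In muscle Psme4 measured 34.1 RPKM in Taz-KD and 27.0 RPKM in WT, the 20th level of the 48, or the 25th by longest transcript. The chaperones were lower, with medians of 4.54 RPKM in Taz-KD and 3.23 RPKM in WT hearts. In muscle the 26S genes measured 15.7 to 94.3 RPKM in Taz-KD (median 38.4) and 14.7 to 83.2 RPKM in WT (median 33.5), with Psmc5 the highest in both genotypes. This order depended on the length used: by longest transcript Psmb6 was the highest of the 26S genes in both WT heart and WT muscle, and Psma6 in heart and Psmc5 in muscle were the 6th of the 48. The tissues were scaled in separate tables, so these levels are set side by side and not tested.

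**Figure D4:**
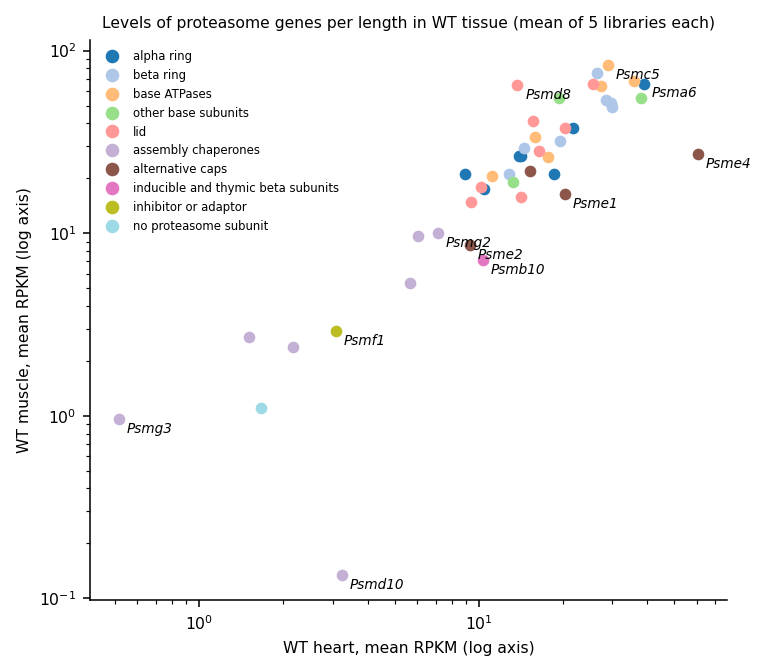
Mean level per length of each proteasome gene in WT muscle (y axis, RPKM, log axis) against WT heart (x axis, RPKM, log axis), coloured by role; Psma8, Psmb11 and Psme2b, at under 0.05 RPKM in muscle, are not drawn. Psme4 lies far to the right at 60.7 RPKM in heart and 27.0 in muscle, and Psmd10 far below the rest at 3.23 RPKM in heart and 0.134 in muscle. Some genes well counted in heart had few or no counts in muscle, so the place of Psmd10 should not be read across tissues.

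In femur muscle no proteasome gene passed the test of edgeR, and 2 of 45, Psmd10 and Psmg2, had an unadjusted p under 0.05. Across all 16145 genes tested in muscle 0.0186% were called, so the table held few calls of any kind. DESeq2 called 1 proteasome gene, Psmd10, beside 144 of all 16145 genes, and 8 of 45 had an unadjusted p under 0.05. The joint fit of both tissues called the same gene, beside 167 of all 20612 genes, and 18 of 47 had an unadjusted p under 0.05. The share of all genes with an unadjusted p under 0.05 is not given here, so these counts are not read as a result. The log2 fold changes were above 0 in 39 of the 45 genes and in all 31 genes of the 26S particle. In the 31 they lay between 0.07 for Psmb4 and 0.26 for Psmd1. The median of the 45 was 0.15, beside -0.02 over all genes. With library sizes alone in place of TMM the median was 0.02, beside -0.16 over all genes, and 28 of 45 were above 0. Without the WT muscles A33 and A55, which had the lowest sums of the 26S genes (left out after seeing the data), the median was 0.06 and 36 of 45 were above 0. The summed level of the 31 genes was 3373, 3891, 3621, 3765 and 3451 CPM in the Taz-KD muscles, against 2715, 3348, 3439, 2862 and 3653 CPM in the WT muscles. The groups overlapped in this sum and in every single gene but Psma2, which was 71.2 ± 5.13 CPM in Taz-KD muscles and 64.1 ± 1.66 CPM in WT muscles (SD, n = 5 each) and not called (adjusted p = 0.373, edgeR). Over all genes tested in muscle, 1.06% had every Taz-KD library above every WT library.

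The 7 genes with the smallest adjusted p among those higher in heart had log2 fold changes of 0.14 to 0.24 in muscle, and none was called. Without A33 and A55, a choice made after seeing the data, these ran from 0.05 for Psma6 to 0.13 for Psmb1, again with none called. Psmc2 measured 112, 130.2, 121, 128 and 119 CPM in the Taz-KD muscles, against 89.0, 109, 112, 85.8 and 120.0 CPM in the WT muscles (log2 fold change 0.24, SE 0.11, adjusted p = 0.343, edgeR). The Taz-KD values lay above A33 and A55 but overlapped the other WT muscles. Psmb1 measured 103, 114, 97.1, 105 and 113 CPM in the Taz-KD muscles, against 83.7, 98.2, 97.0, 108 and 94.9 CPM in the WT muscles (log2 fold change 0.14, SE 0.09, adjusted p = 0.457, edgeR), with A55 the highest of the WT muscles and inside the Taz-KD range. The log2 fold changes of the others in muscle were 0.20 for Psmb5, 0.22 for Psmc6, 0.19 for Psma5, 0.15 for Psmd13 and 0.16 for Psma6. Psmg2, one of the genes with an unadjusted p under 0.05, averaged 20.0 ± 0.989 CPM in Taz-KD muscles and 17.4 ± 1.21 CPM in WT muscles (SD, n = 5 each, log2 fold change 0.20, SE 0.08, adjusted p = 0.311, edgeR).

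Of the 6 genes with a log2 fold change below 0 in muscle, Psme1, Psme2 and Psmb10 were highest in the WT muscles A33 and A55. Psme1 measured 27.2, 30.7, 25.4, 31.1 and 30.1 CPM in the Taz-KD muscles, against 51.5, 31.5, 27.7, 38.4 and 30.9 CPM in the WT muscles. Apart from A33 and A55 the genotypes lay in the same range (log2 fold change -0.32, SE 0.16, adjusted p = 0.368, edgeR), and without both the log2 fold change was -0.06. Psmb10 measured 8.13, 7.47, 7.79, 9.05 and 11.4 CPM in the Taz-KD muscles, against 19.3, 9.57, 10.0, 14.4 and 7.57 CPM in the WT muscles (log2 fold change -0.47, SE 0.24, adjusted p = 0.374, edgeR). Without A33 and A55 its log2 fold change was -0.05, and that of Psme2 was 0.04 instead of -0.43. The interferon and antigen processing list measured 1505 CPM in A33 and 666 CPM in A55, whereas the Taz-KD muscles had 275 to 343 CPM and the other WT muscles 331 to 402 CPM. None of its 10 genes was called in muscle, all 10 had log2 fold changes below 0, and their part in the values of Psme1 and Psmb10 was not tested. The others below 0 were Psmg4 (-0.37), Psmg1 (-0.02) and Psmd5 (-0.01).

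Psmd10, the chaperone known as gankyrin, had the largest fold change in muscle and the least even one. It measured 3.01, 0.209, 3.97, 0.194 and 0.609 CPM in the Taz-KD muscles, against 0.227, 0.149, 0.174, 0.164 and 0.273 CPM in the WT muscles. A34, A52 and A58 were above the WT muscles, and A39 and A56 lay within their range, so the groups overlapped (log2 fold change 2.998, SE 0.86, adjusted p = 0.311, edgeR). The gene had 431 counts over the Taz-KD muscles and 47 over the WT muscles, a low level beside 1091 and 686 counts in Taz-KD and WT hearts. The muscle table also had few or no counts for other genes: Sf1, a splicing factor, had 0 counts over the 10 muscle libraries and 31464 over the 10 hearts, Ndufs3, a subunit of respiratory complex I, had 33 and 40117, and Fbxo32, a ligase of striated muscle, had 20 and 112101. The level of Psmd10 in muscle should therefore not be read against heart.

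Whether the genotype effect differed between tissues was asked in a single fit of the 20 libraries with a term for the difference. Of the 47 proteasome genes tested 1 was called, Psmb1, beside 4.62% of all 20612 genes. The log2 fold change of Psmb1 was 0.51 larger in heart than in muscle (SE 0.13, adjusted p = 0.0327, edgeR). This call ended when R3, R1791, R1792, R2, R1793, R1796 or A51 was left out (adjusted p = 0.0515 to 0.0743) and held without A33 and A55 (adjusted p = 0.00667, edgeR). Without these muscles, a choice made after seeing the data, 7 genes were called. In that fit Psmb1, Psmc2 (0.51), Psmb5 (0.55), Psma5 (0.47), Psmc1 (0.45) and Psmd13 (0.38) were higher by more in heart, and Psme1 (-0.54) was lower by more in heart. A33 and A55 had the lowest sums of the subunit genes and the highest Psme1 of the WT muscles. Leaving them out by itself shrinks the muscle log2 fold changes, whose median over the proteasome genes fell from 0.15 to 0.06. The calls added by that fit therefore cannot show whether the genotype effect differed between the tissues. For Psmb1 the muscle log2 fold change was 0.14 with A33 and A55 and 0.13 without them. Over the other settings tried the number called was between 0 and 10. Psmb10 (0.85, adjusted p = 0.0559), Psmg4 (0.70, adjusted p = 0.0941) and Psmd10 (-2.59, adjusted p = 0.0939) followed and did not pass the test of edgeR. Psmb10 passed without A40, A57 or A58 (adjusted p = 0.013 to 0.0414) and Psmd10 without A39 or A56 (0.035 to 0.038, edgeR). Without A33 and A55 together neither passed. The difference was then 0.50 for Psmb10 (adjusted p = 0.186) and -2.52 for Psmd10 (adjusted p = 0.249, both edgeR). The median difference over the 47 genes was 0.07, beside 0.02 over all genes. For the other genes called in heart the difference between the tissues did not pass the test, which does not show that they moved alike. Of the 30 pathway partners Sem1 (0.70, SE 0.16, adjusted p = 0.0151) and Rps27a (1.5999, SE 0.42, adjusted p = 0.0353) were called (edgeR). The Rps27a call was lost without any of 13 libraries and without A33 and A55 together (1.17, adjusted p = 0.146). The Sem1 call was lost without the hearts R2 and R3 together (adjusted p = 0.0534, edgeR).

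**Figure D5:**
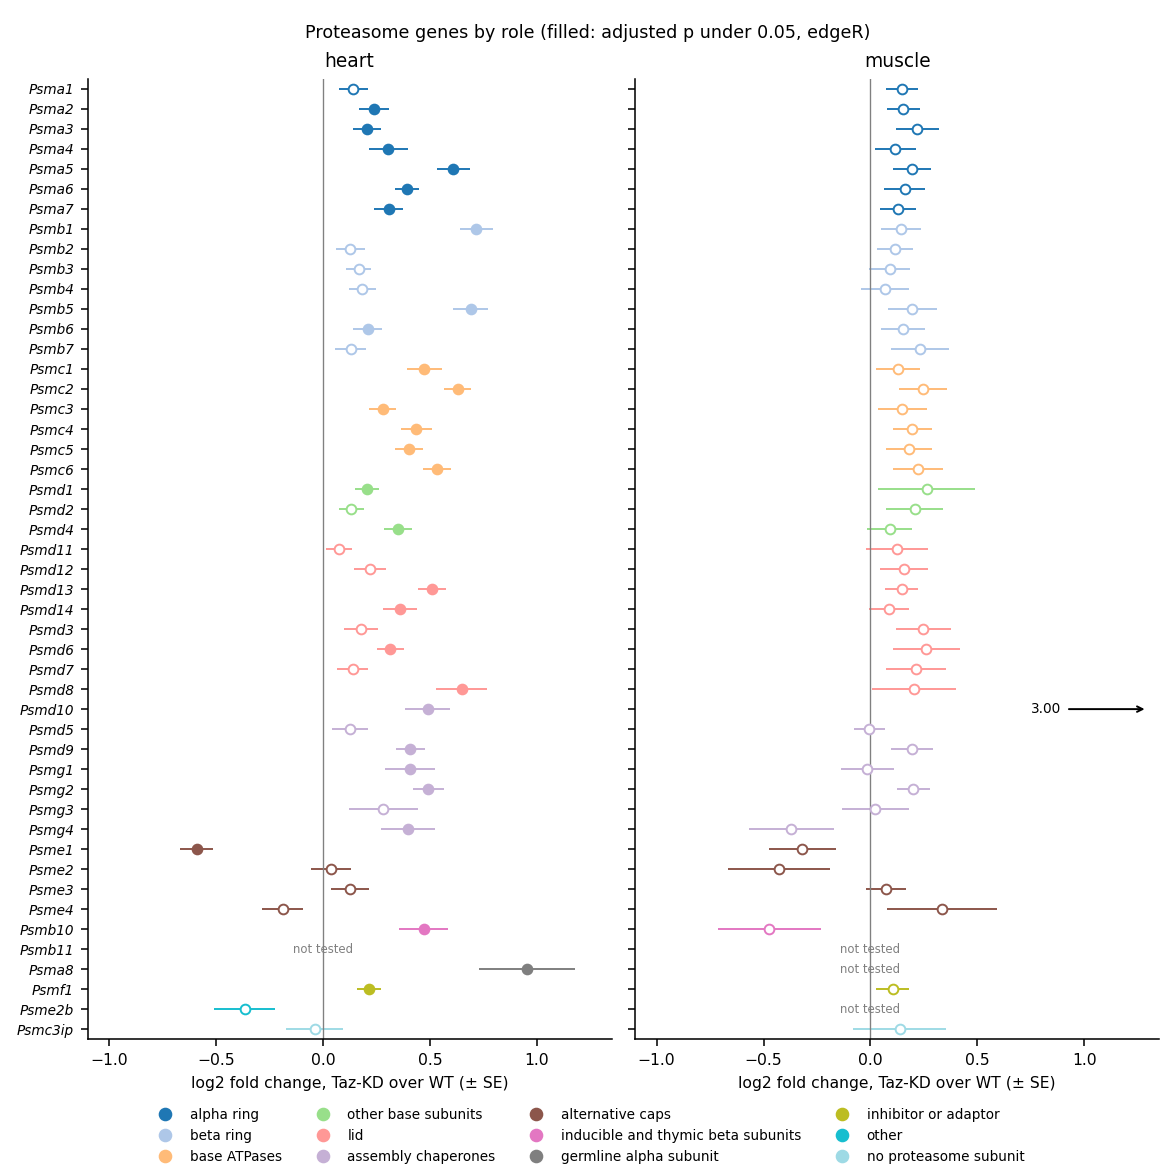
Log2 fold change of Taz-KD over WT (x axis, ± SE from edgeR) of each of the 48 proteasome genes in heart (left) and muscle (right), ordered and coloured by role; filled points passed an adjusted p of 0.05, genes under the filter on low counts are marked not tested, and Psmd10 in muscle, at 2.998, lies beyond the axis. In heart 29 filled points lie to the right of 0 and 1, Psme1, to the left, and in muscle no point is filled.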

How the data were processed

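Ribo-depleted, strand-specific libraries were aligned by the authors with STAR to mouse GRCm38/mm10 and counted per gene with featureCounts 1.6.4. The deposited values are raw counts, and the authors used DESeq2 2.11.40.6. The strand setting, the handling of reads with several matches and the annotation release were not given in the sources used here. Symbols, positions and exon lengths were taken from GENCODE on GRCm38.

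Taz-KD was compared with WT in each tissue with the edgeR 4.0.16 quasi-likelihood test in R 4.3.3 (TMM factors, filterByExpr by genotype, robust dispersion). P-values were adjusted by Benjamini-Hochberg over all genes tested, at a threshold of 0.05. The difference between tissues was fitted over the 46649 genes common to both tables. SE is the log2 fold change divided by the square root of F. RPKM are CPM per kb of merged exons. The scripts were tested on simulated data.

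The proteasome genes and all lists were chosen with earlier results of these data known. Values in every library are given for the 8 genes with the smallest adjusted p in heart, for those called against the majority, for those called between tissues, and for the 4 partners with the smallest adjusted p. Values of Psmb10 and Psmb8 in heart and of single genes in muscle were added after they had been seen. The pathway list has 31 genes, of which Paaf1 was not analysed here and 1 other, included in the counts, is not reported by name here. Alternatives were DESeq2 1.42.0, other scaling factors and filters, protein-coding genes alone, covariates, a joint fit and the removal of libraries. Pairs of libraries of a group differed by more than sampling noise, so none was counted as a repeat.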

Additional observations from a re-analysis of the deposited data

Results flagged for a closer look

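Psmc2 was unusually low in the WT heart R3, at 52.2 CPM, with a gap of 0.787 of the range of its group. Taz was unusually high in the Taz-KD muscle A58, at 15.2 CPM, with a gap of 0.7104 of the range and still below every WT muscle. A limit of 0.71 was used for 5 libraries, and 2 of 54 groups passed it, fewer than the about 1 in 20 that chance gives.

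The following genes were called for a difference in genotype effect between the tissues in the main edgeR fit. The log2 fold change of Psmb1 was 0.51 larger in heart than in muscle (adjusted p = 0.0327), higher in 5 of 5 Taz-KD hearts than in any WT heart. The call was lost under 9 of 29 alternatives, among them the fit without R2 and R3 (adjusted p = 0.092). It held without A33 and A55 (adjusted p = 0.00667). The log2 fold change of Sem1 was 0.70 larger (adjusted p = 0.0151). This call was lost under 1 of 29 alternatives, the fit without R2 and R3 (adjusted p = 0.0534). That of Rps27a was 1.5999 larger (adjusted p = 0.0353), with counts that its pseudogenes may share, and the call was lost under 16 of 29 alternatives, among them the fit without A33 and A55 (1.17, adjusted p = 0.146).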

How the results depend on the processing

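In heart the number of proteasome genes called was 23 to 33 under all alternatives but one, and the joint fit of the 20 libraries gave 17, of which 16 were higher. Over all genes, 3909 of 19514 were called in the fit that gave 23 and 4675 of 17523 in the one that gave 33. The joint fit called 2087 of 20612. Leaving out 1 heart gave 24 to 31 called, 23 to 30 of them higher and 1 to 2 lower, the second being Psme2b without R1791 and Psme4 without R1798. Of the 30 genes called, 17 kept their call under every alternative and 13 lost it under at least 1, and 6 lost it when a single library was left out. Psmb3 was called without R1800 (adjusted p = 0.0416), Psmb4 without R1798 (0.039), and Psmd12 without R1791 or R1797 (0.0255 to 0.0468, edgeR). With R2 and R3 left out, the hearts numbered apart from the rest, 22 were higher and 1 lower. With the sex of the heart as a covariate, read from Xist and Ddx3y and added after seeing the data, 30 were higher and 1 lower.

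In muscle DESeq2 and the joint fit each called 1 gene higher, Psmd10, beside 144 of 16145 and 167 of 20612 over all genes. Every removal of 1 muscle gave 0. The median log2 fold change in muscle was 0.0187 with library sizes alone. For the difference between tissues, DESeq2 called 3 genes (2 with the larger and 1 with the smaller log2 fold change in heart), library sizes alone 10 (10 higher in heart than in muscle), the minimum of 10 counts 5 (5 higher) and protein-coding genes alone 4 (4 higher). No filter called 0 (0 higher), the fit without R2 and R3 0 (0 higher), and the fit without A33 and A55, added after seeing the data, 7 (6 higher, 1 lower). Over all genes, DESeq2 called 1596 of 20612, library sizes alone 1067 of 20612, the minimum of 10 counts 1096 of 13281 and protein-coding genes alone 1084 of 14841. The totals were 672 of 33989 with no filter, 637 of 20941 without R2 and R3, and 912 of 21139 without A33 and A55. Leaving out 1 library gave 0 to 4 called, 0 to 4 higher and 0 to 1 lower. No called value changed sign. Among genes not called, Psme2 in muscle turned to 0.04 without A33 and A55, Psme2 in heart to -0.01 without R2 and R3, and Psmc3ip in heart to 0.03 without R1791. With the longest transcript as length, the median level of the genes with over 100 counts was 23.0 RPKM in WT heart and 39.8 RPKM in WT muscle. On the strand of the gene alone, 3 promoters held the antioxidant response core and 0 the ATF4 element. No paired analysis was possible because the groups share no replicate numbers. With 5 animals a group, small changes may have been missed in muscle.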
